A study of Mus musculus with 6 samples.

Results

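Collagen alpha chains are the gene products from which the collagen fibrils and networks of skin are built, and their transcripts were followed here in mouse skin after osimertinib. Members were taken by name alone: all rows of the deposited gene table whose name is Col, a number, the letter a and a number, without Col17a1 and Col7a1, which encode chains of the epidermal anchoring complex. This gave 42 of 33308 genes, of which 11 encode fibrillar collagens, 6 collagen IV of basement membranes, 9 fibril-associated collagens with interrupted triple helices (FACIT) and 16 other collagens. Col21a1, a further FACIT chain, had no row of that name and so was not analysed here.

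Each collagen molecule is a helical trimer of alpha chains. Col1a1 and Col1a2 form collagen I and Col3a1 forms collagen III, the main fibrils of the dermis, and collagen V sits inside these fibrils and limits their width. FACIT collagens coat the fibril surface, collagen IV forms the sheet-like network of basement membranes, and collagen VI forms beaded filaments around cells and beside basement membranes.

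Polyadenylated RNA was sequenced from 3 skin samples of mice given osimertinib for 42 days and from 3 skin samples of untreated mice, the controls. Osimertinib blocks the kinase of mutant EGFR and is used against lung cancer, and the series asks how it causes skin problems. The labels name no strain, sex, age, dose or skin site. Whether each sample is a different mouse is not stated either, so the p-values rest on variation among samples that may be partly technical.

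Library totals ran from 59877553 to 60719064 counts with osimertinib and from 54112624 to 57174797 in controls. The libraries held unequal amounts of muscle: 20 skeletal muscle markers took 4.80% to 7.86% of the count with osimertinib and 14.9%, 5.06% and 0.0359% in controls 2, 1 and 3. The part of muscle content in the results below was not tested beyond the alternatives with a muscle covariate and with a scaling that leaves muscle genes out. Levels given as CPM are counts relative to library size after TMM scaling. All 10 epidermal keratinocyte markers and all 12 fibroblast markers were detected in every library. Of 10 markers of the hair shaft 9 were matched, and these summed to 496 to 4475 CPM with osimertinib and 3.30 to 202 CPM in controls, while 12 dermal papilla markers summed to 169 to 293 CPM with osimertinib and 71.0 to 91.1 CPM in controls. Such sums are weighted toward the most abundant markers. Of the 12, 8 entered the test described below, 7 with a positive and 1 with a negative log2 fold change. Groups did not overlap in 4 of these 8, against 20.7% of all genes tested.

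In osimertinib-treated skin the chains of collagens I and III held a smaller share of the collagen transcript pool. Per length, Col1a1, Col3a1 and Col1a2 were the most abundant chains, averaging 73.2, 60.4 and 40.1 FPKM (a level per gene length and library size) with osimertinib and 112, 89.5 and 65.5 FPKM in controls. Together they held 58.5%, 47.8% and 59.0% of the summed collagen FPKM in osimertinib samples 1, 2 and 3, against 73.4%, 66.8% and 65.1% in controls 1, 2 and 3. Every treated sample lay below every control, and treated sample 2 was the lowest. Such shares must sum to the whole, so a lower share of some chains is a higher share of others, and they have no test.

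**Figure D1:**
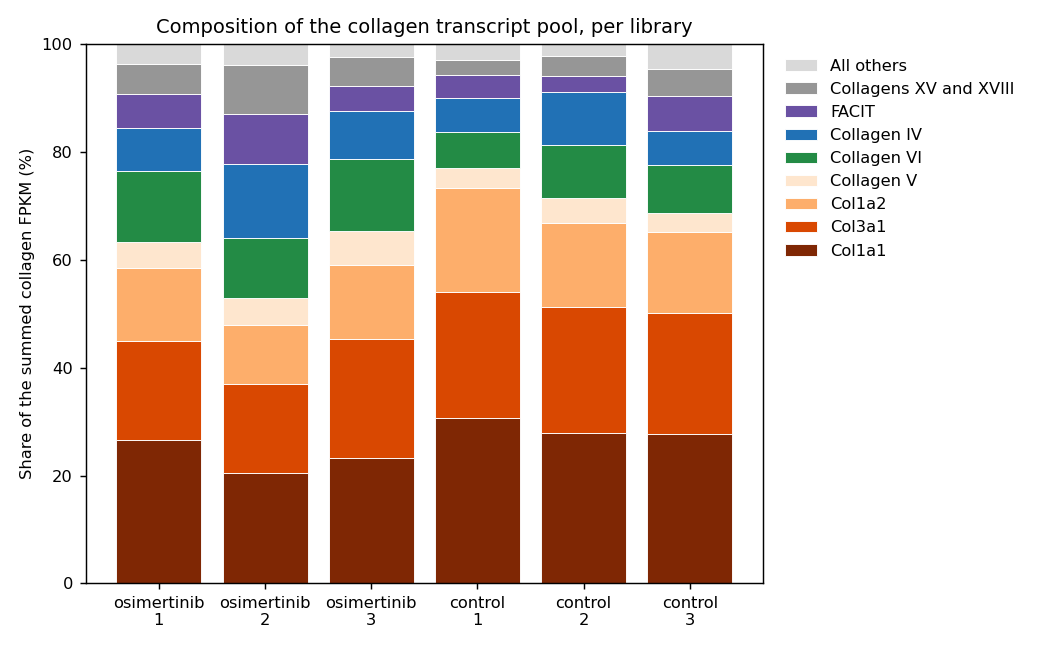
Stacked bars give the share (%) of the summed collagen FPKM held by each chain or collagen type, 1 bar per library, osimertinib left of control. Col1a1, Col3a1 and Col1a2 together fill 47.8% to 59.0% of the treated bars and 65.1% to 73.4% of the control bars.

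Collagen VI held a higher share. Its chains held 13.0%, 11.1% and 13.3% of the pool in treated samples 1, 2 and 3 and 6.75%, 9.71% and 8.89% in controls 1, 2 and 3, again without overlap. Collagens XV and XVIII held 5.51%, 8.97% and 5.36% in treated samples and 2.71%, 3.74% and 4.96% in controls. Collagen V, at 4.88%, 5.00% and 6.44% against 3.58%, 4.72% and 3.59%, did not overlap either, although its lowest treated value lay close to its highest control. Collagen IV overlapped, with 8.03%, 13.8% and 8.91% in treated samples and 6.22%, 9.78% and 6.22% in controls.

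As a part of all counts, the collagen chains together overlapped between groups. The 42 chains took 0.294% ± 0.106 of the library count with osimertinib and 0.382% ± 0.0806 in controls (SD, n = 3 each), with 0.190% to 0.402% in treated samples and 0.300% to 0.461% in controls. In bulk skin, differences in fibroblast number, in collagen RNA per fibroblast and in the counts that muscle adds to the total cannot be told apart.

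Of the 42 chains, 21 had a mean of at least 1 FPKM over the 6 libraries and were tested with the quasi-likelihood test of edgeR over 13498 genes. With Benjamini-Hochberg adjustment edgeR called 0 collagen chains, as it called 0% of all genes tested. At an unadjusted p under 0.05 edgeR passed 4 of 21 chains (19.0%), all lower with osimertinib, where 14% of all genes passed, 6.73% as lower and 7.22% as higher. DESeq2, run as an alternative, called 2 chains, both lower, or 9.52% of the 21, beside 6.36% of all genes called, 2.95% lower and 3.41% higher. In 4 chains every treated sample lay below every control (19.0%, against 9.38% of all genes), and in 0 of the 21 above (11.3% of all genes, 20.7% in either direction). Among the 4, Col8a2 and Col20a1 averaged 0.641 and 0.551 FPKM with osimertinib and 3.68 and 1.60 FPKM in controls. They thus passed the filter of 1 FPKM only through the controls. Both also count among those at an unadjusted p under 0.05 in edgeR, and Col8a2 among those called by DESeq2. Over the 21 tested chains the median log2 fold change was 0.08, with 11 positive and 10 negative values, against −0.05 over all genes tested, of which 45.3% were positive and 54.7% negative. By class the median was −0.32 over 6 fibrillar chains, −0.47 over 4 basement membrane chains, 0.26 over 4 FACIT chains and 0.16 over 7 others. The highest mean among the chains left out was 0.693 FPKM (Col13a1), and the lowest among those tested 1.08 FPKM (Col20a1).

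**Figure D2:**
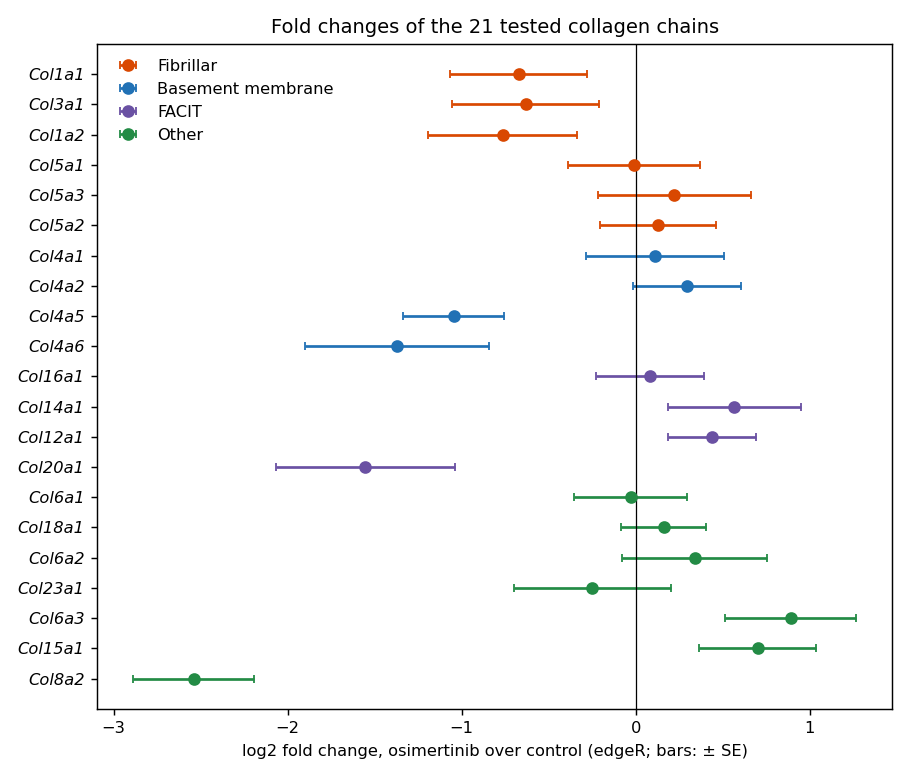
Points give the log2 fold change of each tested chain, osimertinib over control, from edgeR, and bars its SE, with chains grouped by class and ordered by mean FPKM. Col8a2 stands farthest from 0 at −2.54, and Col6a3 is the highest at 0.89.

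Among fibrillar chains, the 3 major dermal chains had negative log2 fold changes, none past the adjusted test, and the collagen V chains lay near 0. Col1a1 (chromosome 11, 94936224 to 94953042, GRCm38, plus strand) had 635, 294 and 716 CPM in osimertinib samples 1, 2 and 3, against 1059, 813 and 754 CPM in controls 1, 2 and 3. All treated samples were below all controls, by a small margin between treated sample 3 and control 3. Its log2 fold change was −0.67 ± 0.39 (SE, n = 3 per group; adjusted p = 0.497 by edgeR).

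Col1a2, which pairs with Col1a1 in collagen I, had 614, 297 and 794 CPM in treated skin and 1268, 858 and 775 CPM in controls. Treated sample 3 overlapped control 3, and the log2 fold change was −0.77 ± 0.43 (adjusted p = 0.481 by edgeR). Col3a1 had 647, 357 and 1023 CPM in treated skin and 1214, 1014 and 915 CPM in controls, with a log2 fold change of −0.63 ± 0.42 (adjusted p = 0.555 by edgeR). Treated sample 2 was lowest and control 1 highest in each of these 3 genes. Without osimertinib 2 the log2 fold changes of Col1a1, Col1a2 and Col3a1 were −0.37, −0.46 and −0.33, nearer to 0 than with all samples. The 12 fibroblast markers, all tested and detected in every library, were higher in 7 and lower in 5 by log2 fold change, and summed to 624, 399 and 905 CPM in treated samples and 962, 832 and 973 CPM in controls. Fibrillar collagen per unit of these markers was 3.31, 2.64 and 3.11 in treated samples and 3.86, 3.46 and 2.66 in controls, which overlapped. The marker sum is weighted toward its most abundant genes, so this ratio does not measure collagen per fibroblast. The part of fibroblast content in the lower collagen I and III levels was not tested beyond this ratio.

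The 300 bases around the RefSeq start of Col1a2 (GRCm38.p6, chr6:4505368-4505667, plus strand, 250 bases before the start and 50 from it) are shown because this gene had the most negative log2 fold change of the major fibrillar chains. Capitals mark matches to 3 motifs, searched on both strands: the CCAAT box, the GGGCGG box bound by Sp1-like factors and the TATAAA box. It holds 2 CCAAT and 2 GGGCGG boxes. A window was matched for 33 of the 42 chains, and 9 chains, among them Col1a1, Col5a2, Col14a1 and Col12a1, had no entry.
Col1a2: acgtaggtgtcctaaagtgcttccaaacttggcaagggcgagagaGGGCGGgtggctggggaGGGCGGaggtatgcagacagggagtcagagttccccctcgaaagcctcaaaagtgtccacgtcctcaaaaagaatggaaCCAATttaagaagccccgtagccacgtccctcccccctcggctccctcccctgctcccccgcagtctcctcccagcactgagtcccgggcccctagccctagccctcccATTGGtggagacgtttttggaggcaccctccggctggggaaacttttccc
Of these 33 chains 11 (33.3%) had a CCAAT box, against 37.4% of the 32851 windows in the RefSeq table, 21 (63.6%) a GGGCGG box, against 35.7%, and 4 (12.1%) a TATAAA box, against 13.6%.

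Collagen V chains overlapped between groups in level. Col5a1 had 54.8, 32.6 and 89.5 CPM in treated samples and 68.6, 63.5 and 46.4 CPM in controls (log2 fold change −0.01 ± 0.38, SE). Col5a2 and Col5a3 had log2 fold changes of 0.13 ± 0.33 and 0.22 ± 0.44, and their groups also overlapped. Treated sample 2 had the lowest and treated sample 3 the highest value of all libraries in each of these 3 genes, so the spread within treated skin was wider than the difference between groups.

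Set against Col1a1 in the same library, the collagen V chains were higher in treated skin. The FPKM ratio of Col5a1 to Col1a1 was 0.0661, 0.0850 and 0.0958 in treated samples and 0.0497, 0.0599 and 0.0472 in controls. For Col5a2 it was 0.0564, 0.0792 and 0.0774 in treated samples and 0.0371, 0.0459 and 0.0375 in controls. Neither ratio overlapped between groups, while that of Col5a3 did (0.0605, 0.0809 and 0.104 against 0.0302, 0.0634 and 0.0451). By contrast, the ratio of Col1a2 to Col1a1 averaged 0.544 ± 0.0382 and 0.578 ± 0.0479, and that of Col3a1 to Col1a1 0.816 ± 0.137 and 0.804 ± 0.0344 (SD, n = 3 each, osimertinib and control). Of 16 such ratios computed between chains, 7 did not overlap, and no share over other pairs of genes was computed. Those with Col1a1 as denominator share it and are not independent. Col1a1 itself lay lower in every treated sample, so a chain of unchanged level also tends to a higher ratio.

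**Figure D3:**
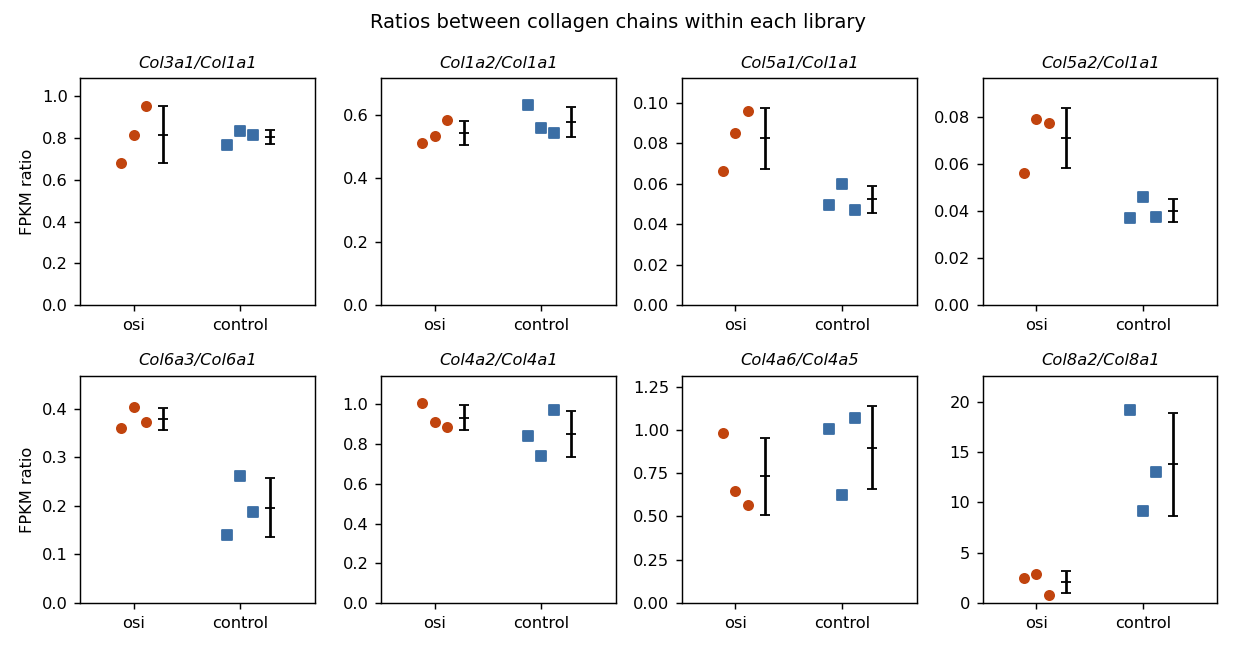
Points give the FPKM ratio of a pair of chains in each library (circles, osimertinib; squares, control), and the black marks the mean ± SD. The ratios of Col5a1 and Col5a2 to Col1a1 and of Col6a3 to Col6a1 lie higher in all treated libraries, that of Col8a2 to Col8a1 lower, and those of Col3a1 to Col1a1 and Col4a2 to Col4a1 overlap.

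The clearest difference among fibrillar chains was in a rare one. Col11a1, a chain of collagen XI, the cartilage counterpart of collagen V (chromosome 3, 114030540 to 114220718, plus strand), had 6.15, 3.68 and 6.09 CPM in treated samples and 0.956, 0.830 and 1.03 CPM in controls. These levels rest on 361, 239 and 378 counts in treated samples and 53, 38 and 66 in controls, and the lowest treated value was above 3 times the highest control. Its mean of 0.213 FPKM kept it out of the main test. Without the filter on low values its log2 fold change was 2.53 ± 0.34 (SE, unadjusted p = 0.000125, adjusted p = 0.122 over 31732 genes by edgeR), in a setting where 0% of genes were called. Its RefSeq promoter window (chr3:114030290-114030589, plus strand), shown for the largest difference among the fibrillar chains with counts in every library, holds 1 CCAAT box and 2 GGGCGG boxes in capitals.
Col11a1: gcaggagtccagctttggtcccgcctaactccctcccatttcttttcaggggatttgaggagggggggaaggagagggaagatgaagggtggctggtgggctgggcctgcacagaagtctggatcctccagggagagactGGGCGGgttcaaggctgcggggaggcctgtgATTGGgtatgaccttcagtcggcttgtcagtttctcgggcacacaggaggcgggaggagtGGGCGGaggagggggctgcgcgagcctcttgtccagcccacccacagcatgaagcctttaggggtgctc

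The other fibrillar chains were under 1 FPKM on average. Col27a1, Col11a2 and Col24a1 overlapped between groups, with mean CPM of 10.4 and 10.5, 3.90 and 3.72, and 1.91 and 2.07 in treated and control skin. Col2a1, the chain of cartilage collagen II, had 14, 56 and 17 counts in treated samples and 0, 10 and 0 in controls. Markers of cartilage and tendon, 12 in all, summed to 39.3 to 53.8 CPM in treated samples and 44.9 to 68.4 CPM in controls, most of it Sox9 and Scx, which other skin cells also express. The cartilage markers Matn3 and Ucma were at 0 in all libraries, and Matn1 and Cnmd were at 0 in all but 1 each. The cartilage proteoglycan Acan was at 0.988, 0.739 and 0.918 CPM in treated samples and at 0, 0.0874 and 0 CPM in controls. No other marker of this list separated the groups. Of the 3 markers of the list that were tested, 1 had a positive and 2 a negative log2 fold change. The part of cartilage cells in the levels of Col2a1, Col11a1 and Col10a1 was not tested.

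Among basement membrane chains, Col4a1 and Col4a2 overlapped between groups and the other 4 had lower means in treated skin, none past the adjusted edgeR test. Of these 4, Col4a5, Col4a4 and Col4a3 did not overlap, where 7.29% of the 31732 genes with a count lay wholly lower. The collagen IV genes lie in head-to-head pairs: Col4a1 and Col4a2 overlap by 22 bases on chromosome 8, Col4a4 and Col4a3 are 71 bases apart on chromosome 1, and Col4a6 and Col4a5 are 1308 bases apart on chromosome X. The first pair makes the collagen IV of nearly all basement membranes, including those of vessels, and the last pair that of epidermis and smooth muscle.

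Col4a1 had 92.7, 106 and 156 CPM in treated samples and 97.5, 168 and 63.4 CPM in controls, and Col4a2 82.8, 85.3 and 123 CPM against 72.7, 110 and 54.5 CPM. Both overlapped, with log2 fold changes of 0.11 ± 0.40 and 0.29 ± 0.31 (SE). The sign of Col4a1 was negative without control 3 (−0.18) and without osimertinib 3 (−0.13). The FPKM ratio of Col4a2 to Col4a1 overlapped too, at 0.934 ± 0.0641 in treated skin and 0.851 ± 0.115 in controls (SD, n = 3 each). Endothelial markers, 10 in all, summed to 280, 227 and 522 CPM in treated samples and 373, 477 and 264 CPM in controls, also overlapping.

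Col4a5 had 13.1, 11.5 and 8.99 CPM in treated samples and 26.3, 15.3 and 27.8 CPM in controls. All treated samples were below all controls, and the mean was 2.06-fold lower, with a log2 fold change of −1.05 ± 0.29 (SE; adjusted p = 0.260 by edgeR, adjusted p = 0.0196 by DESeq2). Its neighbour Col4a6 had 15.2, 8.87 and 6.02 CPM in treated samples and 31.3, 11.3 and 35.2 CPM in controls, and control 2 lay within the treated range (log2 fold change −1.37 ± 0.53, adjusted p = 0.337 by edgeR and 0.111 by DESeq2). Epidermal keratinocyte markers, of which 10 of 10 had a negative log2 fold change, summed to 21800, 11120 and 11150 CPM in treated samples and 20547, 12429 and 35523 CPM in controls. Control 2 was the lowest control in these sums. Treated sample 1, lower than control 1 in both chains, lay above control 1 in these sums. The part of epidermal content in the Col4a5 and Col4a6 levels was not tested. The RefSeq windows of this pair (chrX:141475169-141475468, plus strand, and chrX:141474027-141474326, minus strand) are shown because its members lay lower side by side; Col4a5 holds 1 CCAAT and 1 GGGCGG box and Col4a6 1 GGGCGG box, in capitals.
Col4a5: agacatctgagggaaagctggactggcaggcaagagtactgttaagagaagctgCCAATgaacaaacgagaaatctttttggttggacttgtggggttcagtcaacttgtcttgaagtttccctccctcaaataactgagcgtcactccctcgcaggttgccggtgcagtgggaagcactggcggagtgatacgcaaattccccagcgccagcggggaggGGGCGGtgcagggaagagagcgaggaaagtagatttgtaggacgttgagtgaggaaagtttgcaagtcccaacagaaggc
Col4a6: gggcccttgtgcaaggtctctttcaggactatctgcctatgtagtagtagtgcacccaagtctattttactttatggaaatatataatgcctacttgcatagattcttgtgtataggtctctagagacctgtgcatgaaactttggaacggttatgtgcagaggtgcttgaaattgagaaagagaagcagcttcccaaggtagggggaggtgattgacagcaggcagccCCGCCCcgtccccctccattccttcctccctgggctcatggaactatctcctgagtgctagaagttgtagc

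The remaining pair was rare and lower too. Col4a4 had 2.38, 2.73 and 3.30 CPM in treated samples and 7.38, 3.84 and 4.38 CPM in controls. Col4a3 had 1.36, 1.22 and 0.709 CPM in treated samples and 2.26, 2.10 and 1.43 CPM in controls. Neither overlapped between groups; both were under the filter, and without it their log2 fold changes were −0.85 ± 0.35 and −0.77 ± 0.42 (SE; adjusted p = 0.515 and 0.586 by edgeR). Col4a3 shares 5.65% of its exonic bases with a gene on the opposite strand, and the use of strand in counting is not given, so reads of the 2 genes cannot be told apart there.

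**Figure D4:**
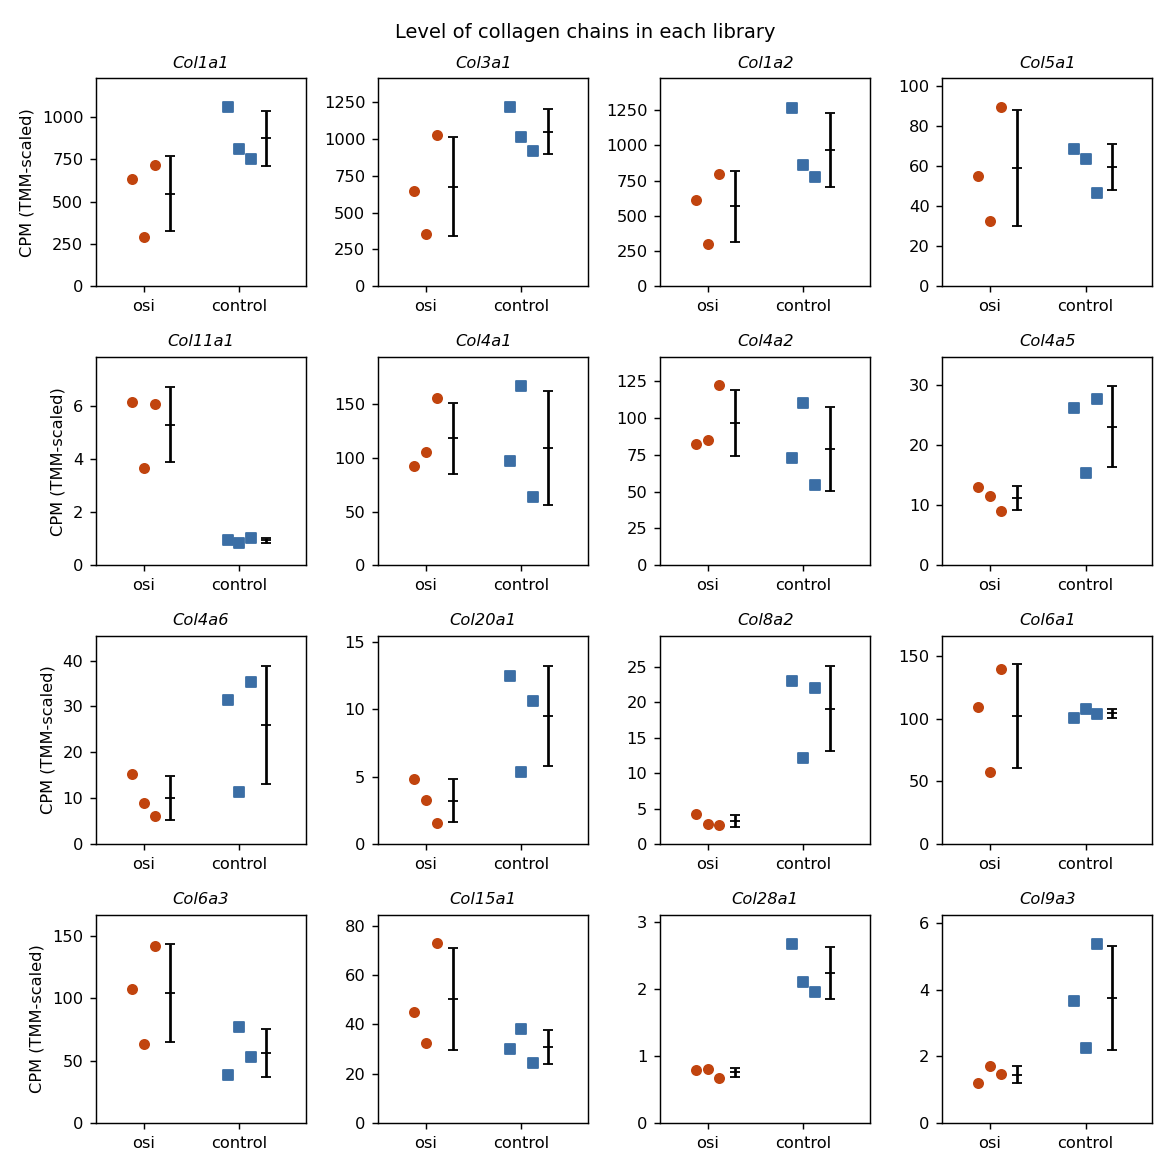
Points give CPM (TMM-scaled, linear axes from 0) of 16 chains in each library, osimertinib as circles at left and control as squares at right, with the mean ± SD in black. Col1a1, Col8a2, Col4a5, Col20a1, Col28a1 and Col9a3 lie lower and Col11a1 higher in every treated library, and Col4a1, Col4a2, Col5a1 and Col6a1 overlap.

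Of the 4 tested FACIT chains, 3 had positive log2 fold changes, none past the adjusted test. Col16a1, the most abundant per length at 14.3 FPKM in treated skin and 13.4 FPKM in controls, had a log2 fold change of 0.08 ± 0.31 (SE). Col14a1 had 16.5, 10.2 and 21.2 CPM in treated samples and 15.6, 8.06 and 8.71 CPM in controls, and Col12a1 31.1, 25.2 and 33.3 CPM against 19.7, 16.9 and 29.4 CPM. Their log2 fold changes of 0.57 ± 0.38 and 0.44 ± 0.25 did not pass (adjusted p = 0.560 and 0.492 by edgeR), and each overlapped. Relative to Col1a1 both were higher in every treated sample: the FPKM ratio of Col14a1 averaged 0.0281 ± 0.00413 in treated skin and 0.0113 ± 0.00228 in controls, and that of Col12a1 0.0260 ± 0.00949 and 0.0113 ± 0.00482 (SD, n = 3 each).

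Col20a1, a little studied FACIT chain, was the exception. It had 4.85, 3.25 and 1.60 CPM in treated samples and 12.5, 5.33 and 10.6 CPM in controls, without overlap, and its log2 fold change was −1.55 ± 0.52 (SE; adjusted p = 0.299 by edgeR, 0.0542 by DESeq2). Col9a3, a chain of the cartilage FACIT collagen IX on the same chromosome, had 1.19, 1.71 and 1.47 CPM in treated samples and 3.68, 2.25 and 5.37 CPM in controls. It was under the filter, and without it the log2 fold change was −1.32 ± 0.41 (adjusted p = 0.379 by edgeR); 6.07% of its exonic bases are shared with Tcfl5 on the opposite strand. The partner chains Col9a1 and Col9a2 had at most 23 and 9 counts in any library, and Col19a1 at most 28. Col22a1, known from muscle and tendon junctions, had 66, 26 and 77 counts in treated samples and 89, 125 and 0 in controls 1, 2 and 3, control 3 being the library with the fewest muscle counts.

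Outside these classes, the tested chain with the largest log2 fold change in size belonged to collagen VIII, a short-chain network collagen known from vessel walls and the corneal endothelium. Col8a2 (chromosome 4, 126286793 to 126314330, plus strand) had 4.24, 2.88 and 2.72 CPM in treated samples and 23.1, 12.2 and 22.0 CPM in controls. The highest treated value was well below the lowest control, and the mean was 5.82-fold lower. Its log2 fold change was −2.54 ± 0.35 (SE; unadjusted p = 0.000270 and adjusted p = 0.130 by edgeR, adjusted p = 1.49e-10 by DESeq2). It was the chain with the smallest p of the 21, and leaving out any single sample kept the log2 fold change between −2.77 and −2.38. The partner chain Col8a1 overlapped between groups, with 3.00, 1.77 and 5.72 CPM in treated samples and 2.11, 2.34 and 2.96 CPM in controls. The FPKM ratio of Col8a2 to Col8a1 was 2.48, 2.85 and 0.831 in treated samples, against 19.2, 9.14 and 13.0 in controls.

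The RefSeq promoter window of Col8a2 (chr4:126286544-126286843, plus strand), shown because this chain differed most of the 21 tested, is 71.7% G and C, against a median of 52.7% over all windows, and holds 4 GGGCGG boxes on either strand, 2 of them overlapping, in capitals.
Col8a2: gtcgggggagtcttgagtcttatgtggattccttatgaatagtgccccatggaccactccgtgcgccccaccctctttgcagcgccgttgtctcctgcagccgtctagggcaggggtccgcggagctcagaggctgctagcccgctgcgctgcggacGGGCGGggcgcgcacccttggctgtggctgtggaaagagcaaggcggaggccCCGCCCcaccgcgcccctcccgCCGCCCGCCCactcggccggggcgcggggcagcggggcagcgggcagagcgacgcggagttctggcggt

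The main collagen VI chains, Col6a1, Col6a2 and Col6a3, overlapped between groups in level, and the ratio of Col6a3 to Col6a1 did not. Col6a3, the long chain that joins Col6a1 and Col6a2 in the trimer, had 108, 63.3 and 142 CPM in treated samples and 38.6, 77.1 and 53.3 CPM in controls. Its log2 fold change of 0.89 ± 0.38 was the highest of the 21 but did not pass (SE; adjusted p = 0.368 by edgeR), and treated sample 2 lay below control 2. Col6a1 had 109, 57.5 and 140 CPM in treated samples and 101, 108 and 104 CPM in controls (−0.03 ± 0.32), and Col6a2 108, 47.1 and 152 CPM against 74.6, 95.6 and 72.1 CPM (0.34 ± 0.42). Within libraries, the FPKM ratio of Col6a3 to Col6a1 was 0.361, 0.403 and 0.372 in treated samples and 0.140, 0.261 and 0.188 in controls, without overlap, while that of Col6a2 to Col6a1 overlapped (0.507 ± 0.0706 and 0.406 ± 0.0522, SD). The minor chains Col6a4, Col6a5 and Col6a6, which can stand in for Col6a3, are neighbours on chromosome 9 and were under the filter. Of these Col6a4 had 50, 57 and 77 counts in treated samples and 3, 16 and 16 in controls, without overlap in CPM, and Col6a5 and Col6a6 overlapped.

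The multiplexins, whose C-terminal fragments include endostatin, did not pass the test. Col15a1, found where fibrils meet basement membranes of vessels and muscle, had 44.9, 32.6 and 73.0 CPM in treated samples and 30.2, 38.0 and 24.5 CPM in controls (log2 fold change 0.70 ± 0.33, SE; adjusted p = 0.416 by edgeR). Col18a1 had a log2 fold change of 0.16 ± 0.25, and treated samples at 90.7 to 102 CPM lay within the control range of 67.0 to 118 CPM.

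Of the transmembrane collagens, Col23a1 had 52.5, 25.1 and 34.8 CPM in treated samples and 45.1, 22.2 and 66.3 CPM in controls (−0.25 ± 0.45, SE), and its sign turned without control 3 (0.16). Col13a1, which acts at cell adhesions and the nerve-muscle junction, had 2.33, 7.48 and 5.33 CPM in treated samples and 2.11, 2.73 and 2.46 CPM in controls, with treated sample 1 inside the control range. Col25a1 had at most 21 counts in any library. Col26a1, a secreted chain, had 45, 129 and 69 counts in treated samples and 26, 39 and 7 in controls, and in CPM treated sample 1 lay below control 2.

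Col28a1 and Col10a1 were rare but separated the groups. Col28a1, a chain known from the surroundings of Schwann cells in peripheral nerve, had 0.783, 0.801 and 0.677 CPM in treated samples and 2.67, 2.10 and 1.95 CPM in controls, 2.97-fold lower on average. Without the filter its log2 fold change was −1.53 ± 0.35 (SE; adjusted p = 0.265 by edgeR). Schwann cell markers, 10 in all and detected in every library, of which 7 of 8 tested had a negative log2 fold change, summed to 254, 137 and 171 CPM in treated samples and 478, 362 and 291 CPM in controls, also without overlap, and their part in the Col28a1 level was not tested. Col10a1, the network collagen of growth plate cartilage, had 32, 13 and 41 counts in treated samples and 0 in each control. Against 3 counts over the control group, the limit that a count of 0 allows for counting error alone, its pooled level was at least 25.5-fold higher. This bound leaves out variation among samples. Without the filter Col10a1 did not pass (unadjusted p = 0.00161, adjusted p = 0.214 by edgeR). It shares 18 exonic bases with Nt5dc1 on the opposite strand, a small part of its length. Its window (chr10:34389731-34390030, plus strand), shown for the chain found only in treated libraries, has the TATAAA box in capitals and neither other box.
Col10a1: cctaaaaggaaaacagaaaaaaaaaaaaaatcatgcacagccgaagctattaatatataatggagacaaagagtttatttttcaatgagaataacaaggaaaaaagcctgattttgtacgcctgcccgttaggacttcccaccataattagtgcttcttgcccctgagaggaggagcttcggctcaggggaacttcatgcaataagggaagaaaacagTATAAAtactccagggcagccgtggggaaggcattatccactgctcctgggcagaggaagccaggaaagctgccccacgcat

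Over all 42 chains, treated samples lay wholly above controls in 4 (9.52%, against 7.53% of 31732 genes with at least 1 count) and wholly below in 8 (19.0%, against 7.29%), where 14.8% of those genes separated in either direction. Without the filter 12 of the 42 had an unadjusted p under 0.05 in edgeR, against 9.41% of the 31732 genes, and 0 passed after adjustment. The filterByExpr filter of edgeR kept 39 of the 42 chains but 19865 of the 31732 genes. This background thus holds more genes with very few counts, which can hardly separate, and the shares compare sets of unlike level. The 4 higher were Col11a1, Col2a1, Col6a4 and Col10a1, all under 1 FPKM on average. Col2a1 separated by a small margin, 0.238 CPM in osimertinib sample 1 against 0.218 CPM in control 2 (unadjusted p = 0.121 by edgeR without the filter). The 8 lower were Col1a1, Col4a5, Col20a1 and Col8a2 among tested chains and Col4a3, Col4a4, Col9a3 and Col28a1 among rarer ones.

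Genes that make and handle collagen were read from 8 lists, in which edgeR called 0 members after adjustment over all genes. The lowest adjusted p by edgeR in these lists was 0.128 (Ltbp2). Log2 fold changes and SE are those of edgeR, also where the p given is from DESeq2. Of 17 tested genes of procollagen folding and modification, 8 had positive and 9 negative log2 fold changes (median −0.09), 4 passed at an unadjusted p under 0.05 in edgeR (14% of all genes), and DESeq2 called 1, lower (6.36% of all genes in either direction). The called gene was P4ha1, a catalytic subunit of the prolyl hydroxylase that stabilises the triple helix, at 40.9, 25.8 and 41.2 CPM in treated samples and 61.2, 60.8 and 60.5 CPM in controls (−0.76 ± 0.21, SE; adjusted p = 0.260 by edgeR and 0.0399 by DESeq2). The sister subunit P4ha2 was at −0.59 ± 0.22, and Plod2, which hydroxylates telopeptide lysines for cross-links, at 1.69 ± 0.58 with all treated samples above all controls. Of the 17 genes, Plod2 was the 1 that lay wholly higher (11.3% of all genes), and 5 lay wholly lower (9.38% of all genes), P4ha1 and P4ha2 among them.

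Of 11 tested genes of procollagen secretion and propeptide cleavage, 2 were positive and 9 negative (median −0.31), and edgeR passed 2 at an unadjusted p under 0.05 (14% of all genes). DESeq2 called 1 (6.36% of all genes), the procollagen C-proteinase enhancer Pcolce2, at 7.78, 4.40 and 7.88 CPM in treated samples and 20.6, 12.9 and 12.2 CPM in controls (−1.19 ± 0.34, SE; adjusted p = 0.265 by edgeR and 0.0260 by DESeq2). The procollagen N-proteinase Adamts14 was at −1.66 ± 0.66, and Sec24d, a coat protein of procollagen export, at −0.71 ± 0.35. No cross-linking gene was called by either tool among 5 tested, nor passed at an unadjusted p under 0.05 in edgeR (median −0.03): Lox, Loxl1 and the basement membrane peroxidase Pxdn were at −0.23 ± 0.54, 0.21 ± 0.45 and 0.74 ± 0.37.

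Fibril-associated proteoglycans and glycoproteins had negative log2 fold changes in 13 of 17 tested (median −0.59), where 54.7% of all genes were negative. At an unadjusted p under 0.05 edgeR passed 7, against 14% of all genes, and DESeq2 called 1 higher and 2 lower, against 6.36% of all genes. Bgn (biglycan), a small proteoglycan of fibrils and pericellular matrix, had 176, 100 and 248 CPM in treated samples and 59.8, 84.2 and 55.6 CPM in controls, all treated above all controls (1.39 ± 0.37, SE; adjusted p = 0.254 by edgeR and 0.0181 by DESeq2). Tnxb, tenascin X, whose loss causes a lax-skin form of Ehlers-Danlos syndrome in humans, had 103, 44.1 and 50.2 CPM in treated samples and 220, 126 and 246 CPM in controls (−1.59 ± 0.42; adjusted p = 0.255 by edgeR and 0.00724 by DESeq2). Ogn, osteoglycin, was at −1.25 ± 0.36 (adjusted p = 0.0327 by DESeq2).

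Of 16 tested elastic fibre genes, 12 had positive and 4 negative log2 fold changes (median 0.40, where 45.3% of all genes were positive). At an unadjusted p under 0.05 edgeR passed 5, against 14% of all genes, and DESeq2 called 2 higher and 2 lower, against 6.36% of all genes. The lower were Ltbp2, a microfibril-binding protein, at 9.16, 7.07 and 9.70 CPM in treated samples and 36.5, 25.2 and 43.8 CPM in controls (−2.02 ± 0.27, SE; adjusted p = 0.128 by edgeR and 7.23e-11 by DESeq2), and Efemp1, fibulin 3 (−1.48 ± 0.36). The higher were Emilin1 (1.14 ± 0.32) and Fbln1 (0.77 ± 0.22).

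Among 7 tested collagen receptors 2 were positive and 5 negative (median −0.33), edgeR passed 2 at an unadjusted p under 0.05 (14% of all genes) and DESeq2 called 2 (6.36% of all genes). The adhesion receptor Adgrg6, which binds collagen IV, was at −1.60 ± 0.43 (SE) and Adgrg1, which binds collagen III, at 0.91 ± 0.25, with adjusted p of 0.00921 and 0.0258 by DESeq2. Basement membrane partners were positive in 5 and negative in 7 of 12 tested (median −0.14) and none was called by DESeq2, while 3 passed at an unadjusted p under 0.05 in edgeR (14% of all genes). Within them the epidermal laminin chains Lama3 and Lamb3 were at −1.25 ± 0.44 and −1.32 ± 0.51, and Lamb1, a chain of vessel and embryonic laminins, at 0.87 ± 0.34. All 12 tested partners, these chains included, overlapped between groups.

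TGF-beta signalling is a main input to collagen transcription. Of 19 tested genes of the TGF-beta and fibrosis list, 8 were positive and 11 negative (median −0.03), 4 passed at an unadjusted p under 0.05 in edgeR (14% of all genes) and DESeq2 called 1 in each direction (6.36% of all genes). Ccn2, connective tissue growth factor, had 51.3, 31.3 and 52.9 CPM in treated samples and 297, 153 and 296 CPM in controls (−2.46 ± 0.36, SE; adjusted p = 0.152 by edgeR and 1.31e-09 by DESeq2). Tgfb1, the ligand that raises collagen I transcription in fibroblasts, had 34.9, 39.6 and 36.6 CPM in treated samples and 17.9, 17.3 and 25.3 CPM in controls (0.88 ± 0.20; adjusted p = 0.210 by edgeR and 0.00333 by DESeq2). Tgfbr3 was at −0.76 ± 0.27.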

How the data were processed

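The deposited table holds, per the file headers, raw counts per gene, not normalized, and FPKM values that the authors made relative to gene length and depth. The labels' protocols describe poly(A) selection, a dUTP-marked second strand and molecular identifiers in the adapters; cutadapt 1.9 and GRCm38 come from the submitters' processing notes. Aligner, counter, annotation and the use of strand and identifiers in counting: not given in the sources used here. The table's 6 further value columns match no sample and were not used. All 42 collagen identifiers are in GENCODE M21, 36 with the same start and end.

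Groups and replicate numbers come from the sample titles. Genes with a mean of at least 1 FPKM over 6 libraries (13498) were tested with edgeR 4.0.16 in R 4.3.3 (TMM, quasi-likelihood test, two-sided, Benjamini-Hochberg, threshold 0.05). The SE is the log2 fold change over the square root of F. Class medians, sums and ratios have no test. Alternatives were DESeq2 1.42.0, limma 3.58.1 on log2(FPKM + 1) or log2(FPKM + 0.1), other scaling and filters, a muscle score as covariate, the replicate block and leaving out each sample. Counting error alone is covered by the limit of 3 counts.

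Any collagen chain could be named; of each partner list, the 3 genes with the smallest p were eligible, or all past the adjusted threshold, and Fbln1, Sox9, Scx and Acan were named after their values were seen. The members and lists were chosen with earlier results of these data known. Classes followed chain structure, with collagens XV and XVIII among the others.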

Additional observations from a re-analysis of the deposited data

How the results depend on the processing

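Over all genes edgeR called 0 in the fit reported here and in each fit without 1 sample (lowest and highest 0), 2 with a mean of at least 5 FPKM and 1 with the muscle score as covariate, while limma called 17 on log2(FPKM + 1) and 2 on log2(FPKM + 0.1), and DESeq2 858. No collagen chain was called except 2 by DESeq2, Col8a2 and Col4a5. Of 21 tested chains 13 kept their sign under all alternatives that gave a value. The other 8 had log2 fold changes from −0.25 (Col23a1) to 0.34 (Col6a2), each smaller in size than its SE. With no filter Col5a1 became 0.0169 and Col6a1 0.0013, and with the muscle covariate Col23a1 became 0.16 and Col4a1 −0.0937; the cause was not tested. Leaving out 1 sample at a time gave −0.17 to 0.38 for Col16a1, −0.57 to 0.16 for Col23a1, −0.18 to 0.59 for Col4a1, −0.43 to 0.28 for Col5a1, −0.23 to 0.38 for Col5a2, −0.32 to 0.53 for Col5a3, −0.31 to 0.26 for Col6a1 and −0.0532 to 0.68 for Col6a2. The basement membrane median, −0.47 as reported, was −0.84 with filterByExpr and −0.81 with no filter, where Col4a3 and Col4a4 entered, 0.18 at a mean of at least 5 FPKM, where Col4a5 and Col4a6 dropped out, −0.31 and −0.19 with limma at pseudocounts of 0.1 and 1, and −0.53 to −0.33 over fits without 1 sample. The FACIT median, 0.26, was −0.27 with filterByExpr, where rarer chains entered. The fibrillar and other medians, −0.32 and 0.16, ran from −0.66 to −0.02 and from −0.05 to 0.26 without 1 sample. With rarer chains entering, the fibrillar median turned to 0.0169 with no filter and was −0.0022 with filterByExpr, against −0.65 at a mean of at least 5 FPKM, and the other median was 0.47 with no filter and with filterByExpr. The log2 ratio of the collagen share of the count, −0.38, was 0.20 without Col1a1, Col1a2 and Col3a1, and −0.67 to −0.14 without 1 sample. Same-numbered samples of the groups had correlations of deviations of 0.222, 0.0294 and −0.115. With 3 samples per group these cannot decide whether the numbers pair the samples. The replicate block called 0 genes and 0 chains, with class medians of −0.44 (fibrillar), −0.42 (basement membrane), 0.32 (FACIT) and 0.20 (other). Col9a1, Col9a2, Col19a1 and Col25a1, with at most 28 counts in any library, allow no statement on small differences.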
